A study of Homo sapiens with 28 samples.

Results

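The transcripts followed here encode 9 signalling proteins that sit directly beneath the B-cell antigen receptor: the kinases BTK, SYK and LYN, the adaptors BLNK and PAG1, the phospholipase PLCG2, the phosphatases PTPN6 and INPP5D, and the inhibitory receptor CD22. Members were found by their gene symbol in the platform annotation, which gave 14 of the 47231 probes on the array, 1 each for 6 genes, 2 for INPP5D and 3 each for PAG1 and PTPN6. PAG1 was chosen by its high signal with ONC201 in parental Z138 cells, and PTPN6 was chosen by its low signal with tunicamycin. Their values in those comparisons are therefore descriptions without a test. When an antigen binds the receptor, LYN phosphorylates its cytoplasmic tails, SYK docks there and phosphorylates BLNK, and BLNK brings BTK and PLCG2 together so that PLCG2 can produce the messengers that release calcium and activate protein kinase C. PAG1, a membrane adaptor, recruits the kinase CSK, which holds Src-family kinases such as LYN in check, while CD22 recruits PTPN6 (SHP-1) and INPP5D (SHIP1) is a lipid phosphatase, and both dampen the signal. Mantle cell lymphoma is a B-cell malignancy that is treated with inhibitors of BTK.

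The 28 Illumina bead arrays carried RNA of JeKo-1 and Z138, established lines of mantle cell lymphoma, in 12 groups of 3 experiments. A time course compared JeKo-1 wells at 0 h with wells kept 12, 24 or 36 h in ONC201, at a dose that the labels do not give, with 3 wells a group. A Z138 experiment compared 4 groups: parental Z138 cells never exposed to ONC201 and ONC201-resistant Z138 cells, each kept for 24 h without drug or in 5 µM ONC201, with 2 wells a group. In the tunicamycin and rapamycin experiment, JeKo-1 cells were kept for 24 h without drug, in 1 µM tunicamycin for 12 or 24 h, or in 10 nM rapamycin for 24 h, with 2 wells a group. All drugs were dissolved in DMSO and untreated wells received DMSO. ONC201 is an anticancer small molecule that activates the mitochondrial protease CLPP, tunicamycin blocks N-linked glycosylation and so stresses the endoplasmic reticulum, and rapamycin inhibits mTORC1. The wells of a line came from 1 stock culture, and p-values reflect only how those wells varied. The 0 h controls of the course were harvested before the treated wells, so each change against 0 h also holds the time in culture, and the 12 h tunicamycin wells were compared with untreated wells of 24 h.

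All values below are log2 signals after background correction and quantile normalization, changes are differences of those ± the standard error from limma, and a change was called at an adjusted p under 0.05 over all probes kept in its experiment. Levels are compared within a probe only, because probes differ in brightness. A probe was detected on an array when its detection p lay under 0.01. Each array detected 29.7% to 35.2% of its probes, median signals ran from 47.5 to 68.7 units, and no pair of arrays held identical values. The B-cell markers MS4A1, CD79A, CD79B and EBF1 were detected on all 28 arrays. Of the mantle cell lymphoma markers, SOX11 was detected on 28 arrays, CCND1 on all 8 Z138 arrays and on 0 of the 20 JeKo-1 arrays, and CD5 on 0 arrays. The T-cell genes CD3D, CD3E, CD4 and CD8A and the myeloid gene LYZ were detected on 0 arrays, while CD3G was detected on 8, CD2 on 4, CD14 on 7, CSF1R on 1, FCGR3A on 16 and NKG7 on 4. The plasma cell genes SDC1, PRDM1, IRF4 and XBP1 were detected on 26, 26, 28 and 28 arrays. Each experiment had its own chip with the groups in order along it, so group and position on the chip cannot be told apart, and nor can chip and experiment. In bulk RNA, fewer cells of a kind cannot be told apart from less RNA per cell.

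Promoter sequences are shown for PTPN6, the member that fell with ONC201 in JeKo-1 and in parental Z138 and beside it for PLCG2 and BTK, for which no ONC201 change was called. They come from RefSeq on GRCh38.p14. PAG1 and LYN were left out of this search, and the other 7 of the 9 members had 11 promoters. Each runs from 250 bases before to 50 after a start. The PTPN6 starts lie 4779 bases apart, at chr12:6946327-6946626 and chr12:6951106-6951405 on the plus strand. The PLCG2 promoter is chr16:81738791-81739090 on the plus strand, and the BTK promoter shown is chrX:101390747-101391046 on the minus strand, the upstream one of 2. Both strands were searched for GAGGAA, the core of sites for the B-cell and myeloid factor PU.1, for CCACG, part of the endoplasmic reticulum stress element, for TTGCATC, the core of the element bound by ATF4 with a C/EBP partner, and for ATGCAAA, most of the octamer. TTGCATC read on the other strand shares the letters ATGCAA with the octamer. Capitals mark GAGGAA or its reverse complement TTCCTC.
PTPN6 upstream start: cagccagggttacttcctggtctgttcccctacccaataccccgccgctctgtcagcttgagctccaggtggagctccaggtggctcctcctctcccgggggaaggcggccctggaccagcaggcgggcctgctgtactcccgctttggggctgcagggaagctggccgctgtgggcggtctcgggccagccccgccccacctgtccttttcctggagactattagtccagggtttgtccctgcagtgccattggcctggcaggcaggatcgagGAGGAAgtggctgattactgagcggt
PTPN6 downstream start: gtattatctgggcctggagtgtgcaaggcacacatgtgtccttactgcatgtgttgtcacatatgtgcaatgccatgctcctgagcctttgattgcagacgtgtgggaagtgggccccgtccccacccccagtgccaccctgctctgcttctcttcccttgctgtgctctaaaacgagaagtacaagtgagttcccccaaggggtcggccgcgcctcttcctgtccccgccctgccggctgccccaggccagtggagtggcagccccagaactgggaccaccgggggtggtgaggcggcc
PLCG2: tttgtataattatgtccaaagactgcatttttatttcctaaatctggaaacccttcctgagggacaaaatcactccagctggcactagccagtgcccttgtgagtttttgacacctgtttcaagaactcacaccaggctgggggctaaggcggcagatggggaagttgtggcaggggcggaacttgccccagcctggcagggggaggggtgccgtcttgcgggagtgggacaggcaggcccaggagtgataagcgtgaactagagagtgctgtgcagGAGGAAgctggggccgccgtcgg
BTK: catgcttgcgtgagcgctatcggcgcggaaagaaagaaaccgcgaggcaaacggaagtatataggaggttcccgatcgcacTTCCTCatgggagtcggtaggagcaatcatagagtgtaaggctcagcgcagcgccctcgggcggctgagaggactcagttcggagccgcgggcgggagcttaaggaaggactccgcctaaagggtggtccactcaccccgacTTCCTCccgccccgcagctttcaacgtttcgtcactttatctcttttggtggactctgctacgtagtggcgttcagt
With the start base counted as position 1, GAGGAA began at position 25 for the upstream PTPN6 start and at position 28 for the PLCG2 start. It stood at positions -169 and -27 in the BTK promoter shown, and at position 10 for the other BTK start. Its letters were in 7 of the 11 member promoters and in 27.9% of the 35114 promoters in the table. Of the 11, CCACG was in 1 (INPP5D) and ATGCAAA in 1 (SYK), while TTGCATC was in 0, against 38.1%, 4.46% and 2.4% of all promoters. The downstream PTPN6 promoter held none of the 4.

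PTPN6, the tyrosine phosphatase SHP-1, fell with ONC201 in JeKo-1 and in parental Z138. The probe that measures it, ILMN_1738675, was detected on 27 arrays. In the JeKo-1 course it stood at 9.24, 9.27 and 9.23 at 0 h, at 9.13, 8.96 and 8.95 at 12 h, at 7.75, 7.62 and 7.60 at 24 h, and at 6.81, 6.45 and 6.51 at 36 h. Each group lay below the one before it with no overlap. At 12 h the change of -0.23 ± 0.10 was not called (adjusted p = 0.232). PTPN6 then fell by 1.59 ± 0.10 at 24 h (3.01-fold, adjusted p = 5.09e-07) and fell by 2.66 ± 0.10 at 36 h (6.30-fold, adjusted p = 3.95e-09). The steps from 12 to 24 h and from 24 to 36 h were called too, at -1.35 (adjusted p = 6.1e-06) and -1.07 (adjusted p = 9.32e-05). Among all 15534 probes of the course, 32.9% were called at 24 h and 46.8% at 36 h, and PTPN6 ranked 73rd and 38th by size of change.

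In parental Z138, PTPN6 stood at 9.14 and 9.07 without drug and at 7.35 and 7.27 with ONC201. In resistant Z138 it stood at 9.29 and 9.09 without drug and at 8.88 and 9.01 with ONC201. The treated parental wells were the low ones, while the other 6 arrays lay between 8.88 and 9.29. PTPN6 fell by 1.79 ± 0.11 in parental cells (3.46-fold, adjusted p = 3.03e-05), where 36.3% of all probes were called. In resistant cells the change was -0.25 ± 0.11 (adjusted p = 0.305), and 0.0868% of all probes were called. The resistant minus the parental effect was 1.54 ± 0.16 (adjusted p = 0.000909), so the difference between the cells passed its own test. Untreated resistant and parental cells differed by 0.09 (adjusted p = 0.76). At 24 h the ONC201 effect in JeKo-1 minus that in parental Z138 was 0.20 ± 0.17 (adjusted p = 0.455, 95% interval -0.16 to 0.57), with an unknown dose in JeKo-1.

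The lowest PTPN6 values came with tunicamycin, the comparison for which the gene was chosen. Untreated JeKo-1 wells stood at 9.70 and 9.91, tunicamycin wells at 7.18 and 7.67 after 12 h and at 5.07 and 5.27 after 24 h, of which the lower was not detected. The groups did not overlap, and the differences from control were -2.38 ± 0.17 and -4.64 ± 0.17. The latter was -3.66 without background correction, -3.73 with offset 50 and -4.36 with the authors' values, and its size is uncertain near the detection limit. Rapamycin wells stood at 9.27 and 9.23, below both controls, a difference of -0.56 ± 0.17. Its control wells are those of the comparison that chose the gene, so it is a description that is not independent of that choice. The limma fit did not call it (adjusted p = 0.0607), while 5 other settings did, the block by replicate number included (adjusted p of 0.00496 to 0.0469). The untreated JeKo-1 wells of this experiment, harvested at 24 h, averaged 9.81, against 9.25 at 0 h in the course, and chip and time cannot be told apart there.

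The summed signal of plasma cell genes differed between the same groups. The summed signal of all 4 genes on the list ran from 10.38 to 10.44 at 0 h, from 10.14 to 10.22 at 12 h, from 10.77 to 10.85 at 24 h and from 11.45 to 11.63 at 36 h of ONC201 in JeKo-1. It ran from 11.92 to 11.93 in parental Z138 controls and from 13.13 to 13.16 with ONC201, and from 11.81 to 11.99 in all resistant wells. In the last experiment it was 10.71 in both controls, 11.53 to 11.63 and 11.82 to 11.83 at 12 and 24 h of tunicamycin, and 10.49 to 10.66 with rapamycin. Within each experiment the groups with the lowest PTPN6 had the highest sums, but across experiments this did not hold, as untreated Z138 wells had higher sums than 24 h ONC201 wells of JeKo-1. The sums add unlogged signals, so the brightest probe weighs most. XBP1 reached 12.6, against at most 9.42 for SDC1, 9.83 for PRDM1 and 10.67 for IRF4, and the genes are not shown separately. XBP1 is also a factor of the endoplasmic reticulum stress response. The summed B-cell markers were lower late in the course (14.21 to 14.37 at 0 h, 13.55 to 13.61 at 36 h) and with ONC201 in parental Z138 (12.57 to 12.67 against 12.70 to 12.92). They ran from 14.01 to 14.05 in the JeKo-1 controls of the last experiment, from 14.08 to 14.13 after 24 h of tunicamycin and from 14.31 to 14.36 with rapamycin. The part of these genes in the results on the members was not tested.

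The other 2 PTPN6 probes gave no measurement. ILMN_1664122 is listed under the same RefSeq transcript as the detected probe and ILMN_1716578 under another. Neither was detected on any of the 28 arrays, and their signals ran from 4.29 to 4.91 and from 4.39 to 5.01. The PTPN6 results therefore rest on 1 probe.

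PAG1 moved the other way in the course. The brightest of its 3 probes, ILMN_2055156, stood at 5.91, 5.78 and 5.77 at 0 h, at 6.77, 6.56 and 6.26 at 12 h, at 7.95, 7.96 and 8.0 at 24 h, and at 8.50, 8.62 and 8.62 at 36 h. Each time lay above the one before with no overlap. PAG1 rose by 0.71 ± 0.11 at 12 h (adjusted p = 0.00703), by 2.15 ± 0.11 at 24 h (4.44-fold, adjusted p = 1.35e-07) and by 2.76 ± 0.11 at 36 h (6.79-fold, adjusted p = 8.91e-09). It was the only member called at 12 h, 1 of 8 genes tested, where 2.41% of all 15534 probes were called. From 12 to 24 h it rose by 1.44 (adjusted p = 1.03e-05), and from 24 to 36 h by 0.61 (adjusted p = 0.00472).

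**Figure D1:**
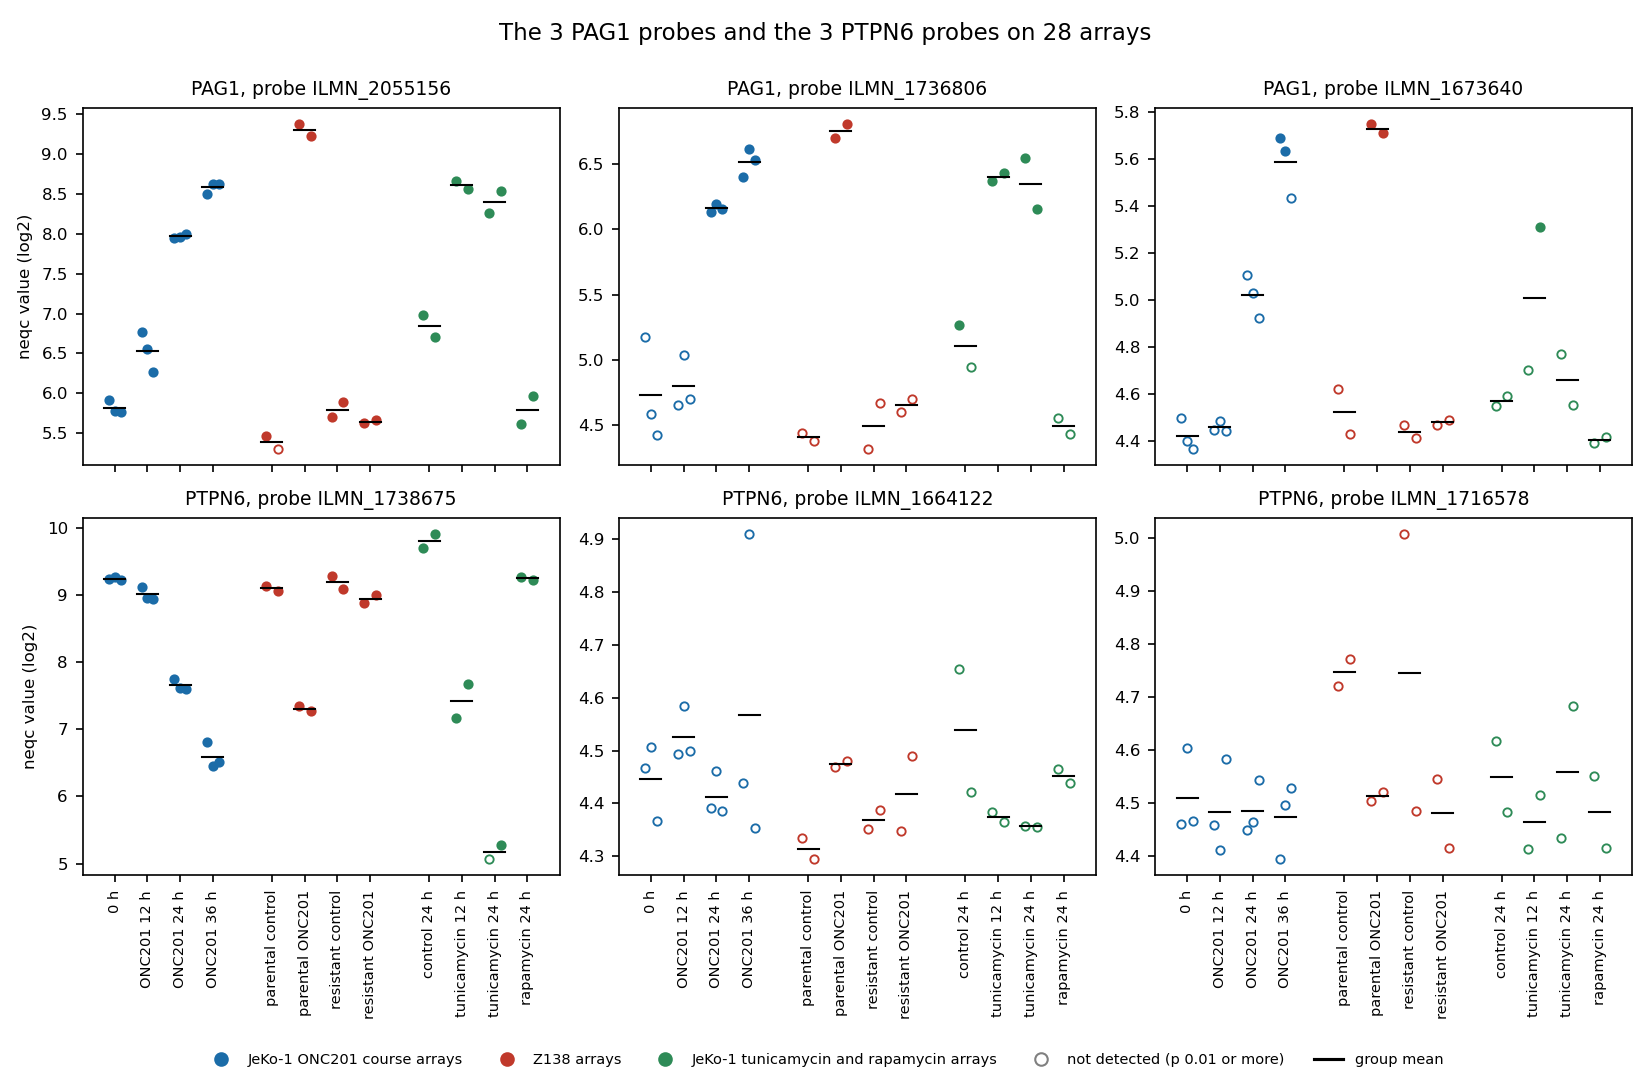
Log2 signal of each PAG1 probe and each PTPN6 probe on each of the 28 arrays, by group, with group means. Open points were not detected. By probe ILMN_2055156 PAG1 stands highest in ONC201-treated parental Z138 cells (9.38 and 9.23). By probe ILMN_1738675 PTPN6 stands lowest in JeKo-1 after 24 h in tunicamycin (5.07 and 5.27).

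The next PAG1 probe, ILMN_1736806, was not detected in any well at 0 or 12 h and read 6.14, 6.20 and 6.15 at 24 h and 6.40, 6.61 and 6.53 at 36 h. It passed the detection filter of the course only through those 6 arrays, so its calls are not separate support. Against the detection limit it was at least 1.58-fold higher at 24 h and at least 2.02-fold higher at 36 h. The fitted differences had an adjusted p of 7.99e-05 and 5.74e-06. The third probe, ILMN_1673640, was detected on 5 of the 28 arrays, 2 at 36 h in the course (5.69 and 5.64), both ONC201-treated parental Z138 wells (5.75 and 5.71) and 1 at 12 h of tunicamycin (5.31). The dimmer probes were thus seen mainly in the groups where the brightest one was highest.

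In Z138 the PAG1 values are those by which the gene was chosen. Parental cells stood at 5.47 and 5.30 without drug, the latter not detected, and at 9.38 and 9.23 with ONC201, a difference of 3.92 ± 0.11. It was 3.07 without background correction, 3.13 with offset 50 and 3.51 with the authors' values. By the 2 dimmer probes, not detected in parental controls, PAG1 was at least 2.65-fold and at least 1.30-fold higher. Resistant cells stood at 5.71 and 5.89 without drug and at 5.63 and 5.66 with it. Their change was -0.15 ± 0.11 (adjusted p = 0.543, 95% interval -0.41 to 0.11), and untreated resistant cells stood 0.41 ± 0.11 above untreated parental cells, a description since those parental wells took part in choosing the gene, and not called. The resistant minus the parental effect of -4.07 ± 0.16 shares the parental values that chose the gene and was not tested.

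Tunicamycin and rapamycin moved PAG1 in opposite directions in JeKo-1. Untreated wells stood at 6.98 and 6.71, tunicamycin wells at 8.66 and 8.56 after 12 h and 8.26 and 8.54 after 24 h, and rapamycin wells at 5.61 and 5.97. The tunicamycin wells all lay above the controls and the rapamycin wells below them. PAG1 rose by 1.77 ± 0.16 at 12 h (adjusted p = 0.00066) and by 1.56 ± 0.16 at 24 h of tunicamycin (adjusted p = 0.000628), and fell by 1.06 ± 0.16 with rapamycin (adjusted p = 0.00619). The 2 tunicamycin times did not differ by the test (-0.21 ± 0.16, adjusted p = 0.555). ILMN_1736806 read 5.27 and 4.94 in controls, the latter not detected, and from 6.15 to 6.54 in the tunicamycin wells, through which it passed the detection filter, so it is not separate support. It was detected in 0 of 2 rapamycin wells, and its difference there ran from -0.61 as processed here to -0.28 with offset 50 and -0.16 with the authors' values, with the call (adjusted p = 0.0362) lost under both (0.0787 and 0.584) and without any 1 of 5 wells (0.0569 to 0.173). The 24 h effect of ONC201 minus that of tunicamycin was 0.60 ± 0.18 for the first probe (adjusted p = 0.021), a call lost without the first control well or the first 24 h tunicamycin well (adjusted p of 0.13 to 0.134). It was lost too without background correction (0.31, adjusted p = 0.0905), with offset 50 (0.33, adjusted p = 0.0767), with the authors' values (0.53, adjusted p = 0.056) and without the detection filter (adjusted p = 0.0576). Untreated JeKo-1 wells averaged 6.84 in this experiment and 5.82 at 0 h of the course.

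Ordered over all groups, the first PAG1 probe was highest in ONC201-treated parental Z138 (mean 9.30), followed by 12 h tunicamycin (8.61), 36 h ONC201 (8.58) and 24 h tunicamycin (8.40) in JeKo-1, each of which overlapped the next, and then 24 h ONC201 (7.97). The 24 h untreated JeKo-1 wells (6.84) overlapped the 12 h ONC201 wells (6.53). The remaining 5 groups lay between 5.38 and 5.82. For PTPN6 the order began with untreated JeKo-1 at 24 h (9.81), and the 6 groups from rapamycin to ONC201-treated resistant Z138 lay between 8.94 and 9.25, each overlapping its neighbour. Below them came 24 h ONC201 in JeKo-1 (7.66), 12 h tunicamycin (7.42) and ONC201-treated parental Z138 (7.31), each overlapping the next, and then 36 h ONC201 (6.59) and 24 h tunicamycin (5.17). Over the 12 group means, centred within each experiment, PAG1 and PTPN6 had a Pearson r of -0.789, a description over groups that share control wells and chips and that include the values by which both genes were chosen. At 12 h of ONC201 PAG1 was called higher, while PTPN6 lay below its 0 h wells without a call. The rapamycin wells, where both lay below their controls, depart from this relation.

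**Figure D2:**
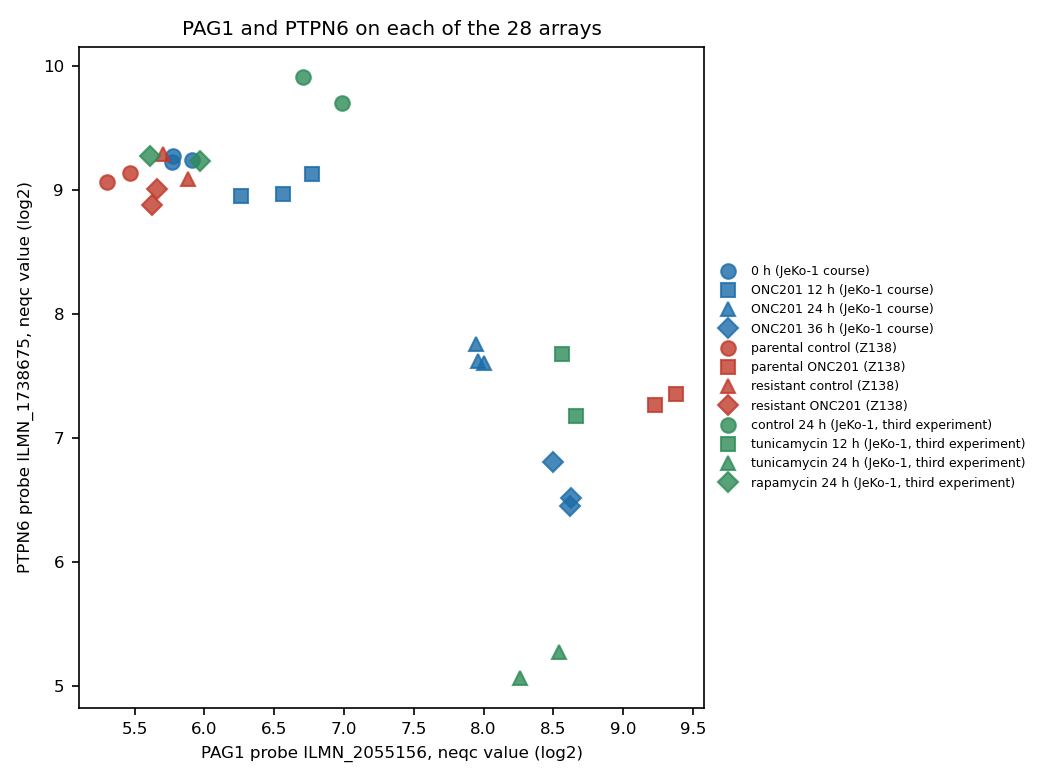
PTPN6 log2 signal (probe ILMN_1738675) against PAG1 log2 signal (probe ILMN_2055156), 1 point for each of the 28 arrays, by experiment. Arrays with PAG1 above 7.9 have PTPN6 below 7.8, and rapamycin wells (PAG1 5.61 and 5.97, PTPN6 9.27 and 9.23) lie among untreated wells of the course.

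The receptor-proximal kinases changed little or not at all. BTK, the target of ibrutinib, was detected on all 28 arrays. It stood between 11.39 and 11.63 at 0 h, between 11.31 and 11.53 in the treated wells of the course, between 10.65 and 10.93 in the 8 Z138 wells, and between 11.17 and 11.42 in the wells of the tunicamycin and rapamycin experiment. Its groups overlapped within the course and within Z138, and the treated wells of the last experiment lay below both controls. None of its changes was called. They ran from -0.14 (12 h tunicamycin, adjusted p = 0.35) to 0.11 (the resistant minus the parental effect, adjusted p = 0.683), and the 36 h change in JeKo-1 was -0.01 ± 0.08 (95% interval -0.19 to 0.17).

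SYK, the kinase that docks on the phosphorylated receptor, stood at 10.37 and 10.21 in parental Z138 controls and at 9.86 and 10.00 with ONC201. The treated wells were lower by 0.37 ± 0.11, which was called (adjusted p = 0.0323) and lost without the first control or either treated well (adjusted p of 0.0548 to 0.159). In resistant cells SYK stood at 10.09 and 10.13 without drug and at 10.07 and 9.91 with it, the treated wells just below the untreated ones and without a call. In JeKo-1, wells at 0 h read 11.65, 11.61 and 11.79 and those at 36 h 11.50, 11.53 and 11.52. That change of -0.17 was not called (adjusted p = 0.0708).

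LYN, a Src-family kinase of the kind that CSK holds in check, was called in opposite directions with ONC201 in parental Z138 and with tunicamycin in JeKo-1. In parental Z138 it stood at 10.43 and 10.37 without and at 10.70 and 10.71 with ONC201, a rise of 0.31 ± 0.09 (adjusted p = 0.0355). In resistant cells it stood at 10.60 and 10.49 without and at 10.43 and 10.37 with ONC201, and the resistant minus the parental effect was -0.45 ± 0.13 (adjusted p = 0.0443). Beside tunicamycin and rapamycin, controls read 11.08 and 11.09, tunicamycin wells 10.76 and 10.97 after 12 h and 10.68 and 10.60 after 24 h, and rapamycin wells 11.14 and 11.12. LYN fell by 0.44 ± 0.10 at 24 h of tunicamycin (adjusted p = 0.0185), and the 24 h effect of ONC201 minus that of tunicamycin in JeKo-1 was 0.40 ± 0.14 (adjusted p = 0.0363). These calls were fragile. The parental one was lost without any of the 4 parental or 2 treated resistant wells (adjusted p of 0.0506 to 0.129), the resistant minus parental one without any of the 8 Z138 wells (0.0729 to 0.128), and the tunicamycin one without either control or either 24 h well (0.0589 to 0.0908). The ONC201 minus tunicamycin one was lost without any 1 of 8 of its 10 wells (adjusted p of 0.0539 to 0.116), and held only without the last 0 h or the last 24 h ONC201 well. In the JeKo-1 course all 12 wells lay between 10.92 and 11.36 with no call.

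PLCG2, the phospholipase activated by BTK and SYK, was low with tunicamycin. Untreated wells read 12.56 and 12.74, tunicamycin wells 12.32 and 12.27 after 12 h and 12.12 and 12.02 after 24 h, and rapamycin wells 12.74 and 12.64. The tunicamycin wells lay below both controls at both times. PLCG2 fell by 0.58 ± 0.10 at 24 h (1.49-fold, adjusted p = 0.00618). The fall of 0.35 ± 0.10 at 12 h was at the threshold (adjusted p = 0.04997) and was lost without any of the 8 wells of the experiment (adjusted p of 0.0658 to 0.211). With ONC201 there was no call in either line, with 12.35 to 12.59 in the treated wells of the course against 12.37 to 12.53 at 0 h, and 10.71 and 10.64 in treated parental Z138 against 10.82 and more in its controls. The 24 h effect of ONC201 minus that of tunicamycin in JeKo-1 was 0.60 ± 0.13 (adjusted p = 0.00214), so these effects differed by their own test.

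BLNK, the adaptor that links SYK to BTK and PLCG2, was not detected on any of the 28 arrays by its 1 probe, ILMN_2142935, and no change can be given for it.

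INPP5D, the SHIP1 lipid phosphatase, was measured by ILMN_1744212 on all 28 arrays, while ILMN_1749920 was detected on 3. In parental Z138 it stood at 8.53 and 8.55 without and at 8.12 and 8.10 with ONC201, and in resistant cells at 8.74 and 8.85 without and at 8.64 and 8.61 with it. The treated parental wells were the lowest of the 8. By ILMN_1744212, INPP5D fell by 0.43 ± 0.09 in parental cells (adjusted p = 0.00869), while ILMN_1749920 was not detected in any parental well. The INPP5D change in resistant cells and the resistant minus the parental effect were not called, so the fall is not shown to differ between the cells. In the course it stood at 10.23, 10.12 and 10.11 at 0 h and between 9.82 and 10.31 afterwards, overlapping, with no call. Controls of the tunicamycin and rapamycin experiment read 9.64 and 9.85, 24 h tunicamycin wells 9.56 and 9.28 and rapamycin wells 9.97 and 9.89, and the tunicamycin change of -0.32 was not called (adjusted p = 0.106).

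CD22, the sialic acid-binding receptor that recruits PTPN6, was dim and was detected on 22 arrays, with none among the 4 parental Z138 wells. It rose with rapamycin, from 5.44 and 5.81 in controls to 6.30 and 6.50, by 0.77 ± 0.14 (1.71-fold, adjusted p = 0.0116). The call was lost without the first control well (0.59, adjusted p = 0.0553) or the second rapamycin well (0.67, adjusted p = 0.0575). Tunicamycin wells stood at 5.40 (not detected) and 5.30 after 12 h and at 5.29 and 5.19 after 24 h, below both controls and without a call (-0.38 at 24 h, adjusted p = 0.0916). Untreated resistant Z138 wells read 5.59 and 5.45. Their difference from undetected parental wells, at least 1.13-fold, was not called (adjusted p = 0.0665). CD22 passed the Z138 filter only through the resistant wells, so this comparison is not independent of the filter.

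**Figure D3:**
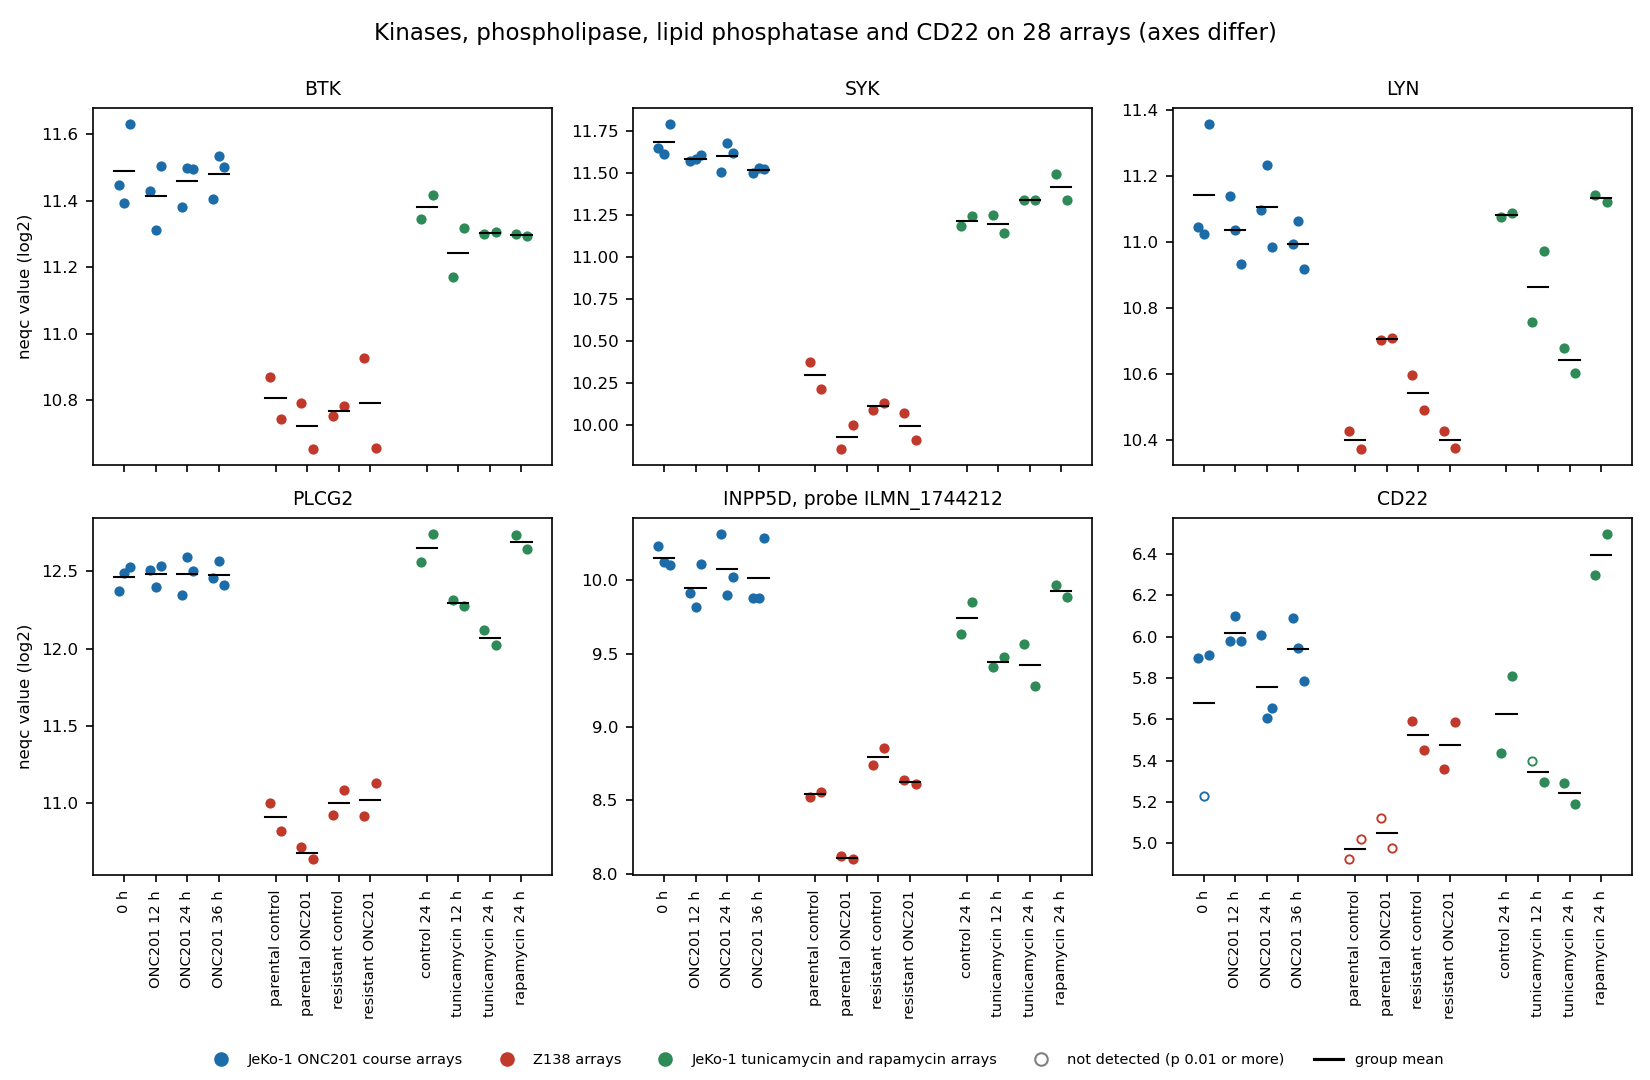
Log2 signal of BTK, SYK, LYN, PLCG2, INPP5D and CD22 on each of the 28 arrays by group, with group means. Open points were not detected. BTK lies between 10.65 and 11.63 in all wells, PLCG2 is lowest of its experiment in 24 h tunicamycin (12.12 and 12.02), and CD22 highest in rapamycin (6.30 and 6.50).

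The counts of member genes that follow leave out PAG1 for the ONC201 effect in parental Z138 and for the differences from that effect. They leave out PTPN6 in the comparisons with tunicamycin. Between untreated resistant and parental cells PAG1 is counted, though those parental wells took part in choosing it. PAG1 was called by its brightest probe in each comparison where it is counted as called. In the course, 2 of 8 genes tested, PAG1 and PTPN6, were called at 24 h and at 36 h, beside 32.9% and 46.8% of all probes. The same pair was called between 12 and 24 h (16.4% of all probes) and between 24 and 36 h (11.9%). In parental Z138, 4 of 7 were called, LYN higher and PTPN6, INPP5D and SYK lower, beside 36.3% of all probes. In resistant Z138, limma called 0 of 8 genes, with 0 of their 11 probes at an unadjusted p under 0.05, where 0.0868% of all probes were called. Between untreated resistant and parental cells 0 of 8 were called (1.71% of all probes), with 3 of 11 probes at an unadjusted p under 0.05, and for the resistant minus the parental effect 2 of 7 (23.2%). Tunicamycin called 2 of 7 at 12 h (19% of all probes), PAG1 and PLCG2, and 3 of 7 at 24 h (25.4%), these and LYN. Rapamycin called 2 of 8 (19.5%), CD22 and PAG1. Between 12 and 24 h of tunicamycin 0 of 7 were called (1.95%), with 0 at an unadjusted p under 0.05. For the ONC201 effect in JeKo-1 minus parental Z138, 0 of 7 were called (21.6%), with 2 at an unadjusted p under 0.05, and for ONC201 minus tunicamycin 3 of 7 (24.5%).

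**Figure D4:**
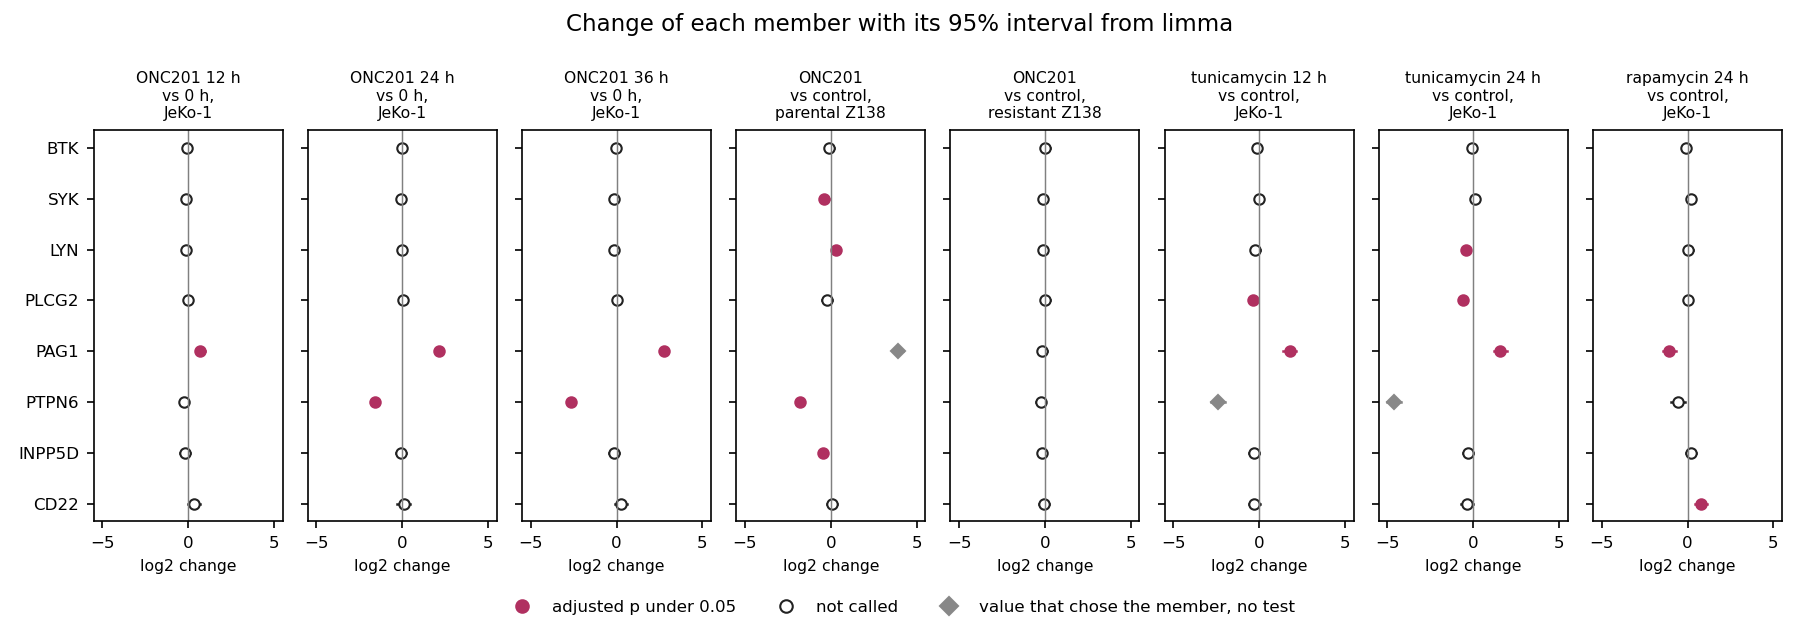
Log2 change (x axis) of the brightest probe of 8 members (BLNK left out as not detected) in each treated-against-control comparison, with 95% intervals from limma; filled points were called, open points were not, and grey diamonds are values that chose the member. PAG1 and PTPN6 lie farthest from 0 with ONC201 at 24 and 36 h in JeKo-1, with ONC201 in parental Z138 and with tunicamycin, and the BTK intervals all include 0.

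The wider receptor pathway was followed with 115 other genes in 10 role lists, of which 98 had a named probe. In the course 72 were tested, with 15 higher and 15 lower at 24 h (41.7% called, median change -0.02). At 36 h 16 were higher and 18 lower (47.2%, median -0.04). Of all probes 32.9% were called at 24 h (16.2% higher and 16.7% lower) and 46.8% at 36 h (23% and 23.8%). The lists hold 1 probe a gene, unlike all probes. Fits of 1 probe a gene, adjusted over those probes alone, called 38.4% at 24 h and 51.1% at 36 h. At 12 h 2 were higher and 2 lower (5.56%, against 2.41% of all probes and 3.83% with 1 probe a gene). CSK, the kinase that PAG1 recruits, fell by 0.42 ± 0.08 at 12 h (adjusted p = 0.0202), by 0.55 at 24 h (adjusted p = 0.000381) and by 0.27 at 36 h (adjusted p = 0.015), and in parental Z138 its change was 0.16 (adjusted p = 0.34). At 12 h CD79A, a signalling chain of the receptor, fell by 0.48 ± 0.06 (adjusted p = 0.00306) and PPP3CA, the catalytic subunit of calcineurin, rose by 0.41 ± 0.09 (adjusted p = 0.0452). Of the inhibitory receptors 4 of 15 were tested, and all 4 were lower at 24 h (median -0.73) and at 36 h (median -1.23). GAB2, an adaptor that recruits phosphoinositide 3-kinase, rose by 2.19 ± 0.09 at 24 h (adjusted p = 3.56e-08) and by 3.53 ± 0.09 at 36 h (adjusted p = 2.82e-10). FYN, a Src-family kinase like LYN, had a fitted rise of 1.72 ± 0.25 at 24 h (adjusted p = 0.000372). It was detected in 1 of the 3 wells at 0 h, so this size depends on the background correction. The 24 h wells alone sufficed for FYN to pass the filter, so this call is not separate support. VPREB1, a part of the surrogate light chain, fell by 1.68 ± 0.14 at 24 h (adjusted p = 5.56e-06). At 36 h VPREB1 was at least 8.25-fold lower.

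In parental Z138 77 pathway genes were tested, with 16 higher and 18 lower (44.2%, median 0.02), against 17.8% and 18.5% of all probes. The fit of 1 probe a gene called 44.8%. FYN was at least 6.07-fold higher and GAB2 at least 2.87-fold higher. Their fitted differences were called (adjusted p = 1.16e-05 and 1.59e-05). The treated wells alone sufficed for both to pass the filter, so these calls are not separate support. ITPR1, an inositol trisphosphate receptor that releases calcium, rose by 1.96 ± 0.13 (adjusted p = 3.85e-05). Of the 4 inhibitory receptors tested in parental cells, 1 was higher, 2 were lower and 1 was not called. In resistant cells 0 of the 77 were called by limma, with 10 at an unadjusted p under 0.05. For the resistant minus the parental effect 11 were higher and 13 lower (31.2%, against 23.2% of all probes and 30.6% with 1 probe a gene). Between untreated resistant and parental cells 3 were higher and 1 lower (5.19%, against 1.71% of all probes and 3.98% with 1 probe a gene). The largest changes were those of VPREB1 (1.19 ± 0.14, adjusted p = 0.00491) and PIK3IP1, an inhibitor of phosphoinositide 3-kinase (-1.15 ± 0.11, adjusted p = 0.00176).

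With tunicamycin 6 of 77 pathway genes were higher and 14 lower at 12 h (26%), against 9.49% and 9.47% of all probes. The fit of 1 probe a gene called 25.6% there. At 24 h 8 were higher and 23 lower (40.3%, median -0.22), against 12.5% and 12.8% of all probes. No share with 1 probe a gene is given here for 24 h of tunicamycin or for rapamycin, so the pathway shares there stand beside an unlike measure. GAB2 rose by 3.0 ± 0.13 (adjusted p = 1.7e-05), ITPR1 by 2.04 ± 0.09 (adjusted p = 1.7e-05) and FYN by 1.97 ± 0.15 (adjusted p = 0.000185) at 24 h, and 3 of the 6 inhibitory receptors tested fell. With rapamycin 16 were higher and 8 lower (31.2%, median 0.09), against 9.46% and 10% of all probes. The median change over all probes lay within 0.02 of 0 in each comparison. RHOH, a haematopoietic GTPase, rose by 1.15 ± 0.16 (adjusted p = 0.00448), LAT2, a transmembrane adaptor, fell by 1.63 ± 0.19 (adjusted p = 0.00244), VPREB1 was at least 3.46-fold lower, and 2 of the 6 inhibitory receptors rose with 0 falling. Set beside tunicamycin, the 24 h effect of ONC201 in JeKo-1 was higher for VAV3, a guanine nucleotide exchange factor, by 1.59 ± 0.11 (adjusted p = 3.89e-09), for the adaptor STAP1 by 1.50 ± 0.23 (adjusted p = 7.32e-05) and for the transcription factor NFATC1 by 1.44 ± 0.18 (adjusted p = 4.24e-06).

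Genes whose pattern over the 12 group means was most like a member's, out of 8157 candidates, were ASPHD2 (r = 0.990), TM6SF1 (0.989) and PPM1M (0.984) for PAG1 by its first probe. By the second probe they were WIPI1 (0.991), TM6SF1 (0.986) and PPM1M (0.985), and by the third, detected on 5 arrays, HPS4 (0.968), MINDY3 (0.961) and DOCK11 (0.958). For PTPN6 they were SIT1 (0.983), CD83 (0.974) and SNX10 (0.967). The means were centred within each experiment, and the r values are descriptions over groups that share controls.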

How the data were processed

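Per the submitters' processing notes, arrays were read with GenomeStudio. The deposited table used here holds, per the file headers, the mean bead intensity of each probe without background correction and a detection p-value. Another deposited table holds intensity after background subtraction, and the last an intensity that the authors normalized; how is not given in the sources used here. Only the last served, as an alternative.

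Uncorrected signals were processed with neqc in limma 3.58.1 (R 4.3.3, with the data.table package, version 1.17.8): background inferred from the detection p-values, offset 16, log2 and quantile normalization over 28 arrays. Probes were kept in an experiment when detected (p under 0.01) on 3 or more arrays in the course and on 2 or more in the others, the smallest group sizes, which left 15534, 17291 and 17199. Each experiment was fitted with all its groups, and p-values were adjusted by Benjamini-Hochberg over all probes kept. Differences between experiments were fitted over 28 arrays on probes kept in both. Scripts were tested on simulated data. If a probe was detected on none of a group's arrays, its fold is a bound, taken from the lowest signal detected there.

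Of the probes, 27004 carried 1 gene symbol, 4 several and 20223 none, and 26970 took the current symbol through their gene ID. The pathway lists were written from general knowledge, with 1 probe a gene (that with the highest mean). Named outside the members were at most 3 called pathway genes per comparison with the largest change, with CSK, one of these at 12 h, followed at other times as PAG1's partner after its values were seen, and the 3 genes most alike. Members and lists were chosen with earlier results of these data known. Python 3.11.15 and matplotlib 3.10.9 drew the figures. No sequence is printed for PAG1 or LYN. Same-numbered wells did not deviate together, so replicate numbers pair no wells. The number of arrays limits the precision.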

Additional observations from a re-analysis of the deposited data

Results flagged for a closer look

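In Z138, the ONC201 effect differed between resistant and parental cells by its own test for PTPN6 (1.54 ± 0.16, adjusted p = 0.000909) and for LYN (-0.45 ± 0.13, adjusted p = 0.0443, a call lost without any 1 of the 8 wells, with adjusted p of 0.0729 to 0.128). For PAG1 (probe ILMN_2055156) the difference was -4.07 ± 0.16, with treated wells above their controls in parental cells and below them in resistant cells, and it was not tested. Among pathway genes the same difference was -3.36 ± 0.21 for FYN (adjusted p = 0.000125), -2.22 ± 0.18 for ITPR1 (adjusted p = 0.000445) and -2.17 ± 0.16 for GAB2 (adjusted p = 0.000339). FYN and GAB2 were not detected in the parental controls, so the sizes given for them are fitted values that depend on the background correction, not measured folds. The treated parental wells alone sufficed for both to pass the filter, so their calls are not separate support.

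The 24 h effect of ONC201 in JeKo-1 minus that in parental Z138 differed for PRKCB, a protein kinase C (1.51 ± 0.11, adjusted p = 8.51e-09), and for the inhibitory receptor CD72 (-1.40 ± 0.13, adjusted p = 1.72e-07). For FYN the fitted difference was -1.39 ± 0.33 (adjusted p = 0.00406), with the same limit on its size. The 24 h JeKo-1 wells and the treated parental wells alone sufficed for FYN to pass both filters, so its call is not separate support. The lines were on different chips and the dose in JeKo-1 is not given, so line, chip and dose cannot be told apart.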

How the results depend on the processing

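Counts of called member probes kept within 1.5 times of those reported in all comparisons but the following. Without the detection filter they went from 4 to 2 for ONC201 in parental Z138, from 2 to 1 for the resistant minus the parental effect and from 3 to 1 for ONC201 minus tunicamycin, with more probes adjusted over. With 1 probe a gene CD22 was called between untreated resistant and parental Z138 (adjusted p = 0.0351), from 0 to 1. CD22 passed the Z138 filter only through resistant wells, so that call is not separate support. Leaving out each well in turn gave 2 to 4 for parental Z138, 1 to 1 for the resistant minus the parental effect, 1 to 3 for rapamycin, 0 to 1 for JeKo-1 minus parental Z138 and 1 to 3 for ONC201 minus tunicamycin, and a lone well left in a group was assumed to vary like the others. With the replicate number as a block, the resistant minus the parental effect went from 2 to 1, as LYN missed the threshold (adjusted p = 0.0527), and the pairing by number had no basis in the wells (r of deviations from -0.193 to 0.102). Calls were also lost without the filter for SYK and LYN in parental Z138 (adjusted p = 0.0669 and 0.0613), and for PLCG2 at 12 h of tunicamycin with the authors' values (0.0608), without the filter (0.116) and with the block (0.0771). For ONC201 minus tunicamycin LYN was lost without the filter (0.0924) and with the block (0.0636), and its resistant minus parental call with the authors' values (0.0522) and without the filter (0.0798). With the authors' normalized values INPP5D was called for the resistant minus the parental effect (0.0459) and at 24 h of tunicamycin (0.0379). Without 1 well, SYK was called at 36 h in JeKo-1 (0 h well 2 left out, 0.0451) and CD22 at 24 h of tunicamycin (control well 1 left out, 0.0401). No called value changed sign under any setting run; uncalled values near 0 did, 6 with the authors' values, 1 with offset 50 and 64 in fits without 1 well. Of all probes, ONC201 in resistant Z138 called 15 as reported, 443 without background correction, 488 with offset 50, 784 in 1 fit of 28 arrays, 63 with 1 probe a gene, 36 with the authors' values, 7 when normalized within each experiment, and 0 without the filter or with the block. CD22, the 2 dimmer PAG1 probes and PTPN6 after 24 h of tunicamycin lie near the detection limit, where log2 differences are compressed.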
